A study of Triticum aestivum and Aegilops tauschii and Triticum carthlicum with 18 samples.

Results

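Gene expression in the fifth selfed generation (S5) of synthetic allohexaploid wheat was set against that in the fourth (S4), across both lines of the study. The comparison took 8 of the 18 arrays of the series: 4 of S5 plants (2 of Allo-AT5 and 2 of Allo-AT9) and 4 of S4 plants (2 of each line), with the line kept as a block. Allo-AT5 came from a cross of Triticum turgidum ssp. durum (line TTR04) with Aegilops tauschii (line TQ27), and Allo-AT9 from a cross of T. turgidum ssp. carthlicum (line TTH01) with the same TQ27. Chromosomes were doubled with colchicine in both, and the plants then set seed by selfing. Each array held RNA from the second leaf of seedlings with 3 leaves, pooled over 10 plants kept in growth chambers (22 °C in the 12 h of light, 20 °C in the dark). Only plants whose chromosome sets looked intact by genomic in situ hybridization had been taken, so plants with lost or rearranged chromosomes are outside the comparison. The parents and the RNA mixtures of the parents (mid-parent values, MPV5 and MPV9, 2 parts of tetraploid to 1 part of diploid RNA) enter only where they are named. Whether S5 and S4 seedlings were grown and hybridized side by side is not given in the sources used here.

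An allohexaploid of this kind carries the BBAA genomes of tetraploid wheat and the DD genome of goat grass in 1 nucleus, the constitution of bread wheat. Its homoeologous genes were brought together at once by the cross and the doubling, and selfing then passes the combination on while residual differences among plants become fixed. A comparison of successive selfed generations asks which transcript levels move after the cross itself is over.

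The values are log2 levels from robust multichip averaging (RMA), so a difference of 1 is 2-fold. After 175 control probe sets were set aside, 61115 probe sets were tested, and 27528 counted as expressed, with both arrays of at least 1 of the 4 groups at 4.5 or more. The brightest probe sets for leaf transcripts went with the labelled tissue. Probe sets for the photosystem proteins OEE1 (Ta_841.1.S1_a_at) and OEE2 (Ta_85.1.S1_at) and for the Rieske protein petC (Ta_861.1.S1_at) read between 12.74 and 13.23 on all 8 arrays, and the brightest rbcL probe set (large Rubisco subunit, TaAffx_128414.1.A1_x_at) between 14.40 and 14.46. Of 36 probe sets for photosynthesis and carbon fixation, 16 to 18 reached 4.5 on each array, and most of those under it are for rbcL. Of 23 probe sets for grain storage proteins, 2 reached 4.5 on each array, among them Ta_27777.1.S1_at at 9.21 to 10.50.

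The arrays also differed in a way the groups do not explain. BioC, a bacterial control RNA added before hybridization, read 9.31 on Allo-AT9 S5 replicate 1, 9.49 on Allo-AT5 S4 replicate 1 and 9.60 on Allo-AT9 S4 replicate 1. On the other 5 arrays it read 6.06 to 7.22. In Allo-AT9 each generation thus had 1 array with high BioC and 1 with low BioC, whereas in Allo-AT5 both S5 arrays were low and the S4 arrays were 1 of each. Wheat transcripts went with this split: in Allo-AT9, both high-BioC arrays lay above both low-BioC arrays, or both below, for 14271 expressed probe sets (51.8%). Some separate this way with no effect at all. By generation, the S5 arrays of Allo-AT9 lay above its S4 arrays for 11.5% and below them for 11.7%.

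No probe set differed between S5 and S4 over both lines at an adjusted p under 0.05 (limma, Benjamini-Hochberg over 61115 probe sets, 0% called). At an unadjusted p under 0.05 the same fit held 1627 probe sets, 2.66% of those tested, of which 862 (1.41%) were higher and 765 (1.25%) lower at S5. Within Allo-AT5 the test called 0 probe sets, with 1739 at an unadjusted p under 0.05 (2.85%, of which 1.48% higher and 1.37% lower at S5). Within Allo-AT9 it also called 0, with 1300 unadjusted (2.13%, of which 1.06% higher and 1.07% lower at S5). The shares of 2.66%, 2.85% and 2.13% lie below what a threshold of 0.05 gives on average where nothing differs. The same 8 arrays did separate the lines. Between Allo-AT5 and Allo-AT9 over both generations 1097 probe sets passed (1.79%), 525 higher and 572 lower in Allo-AT5, beside 6004 at an unadjusted p under 0.05 (9.82%, of which 4.37% higher and 5.45% lower). The count of 1097 fell to 682 when replicate 1 of Allo-AT5 S5 was left out and to 635 when replicate 2 was. The fit over both lines has 5 residual degrees of freedom and the fit of 4 groups, used within lines and for the interaction, has 4. The p-values measure the spread between these arrays, and in 3 of the groups that spread holds unlike BioC as well as separate pools. In the fit over both lines it also holds any difference between the lines in their change.

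Averaged over both lines, the generation difference was small for most transcripts. Over both lines the median absolute log2 difference of an expressed probe set was 0.14, and 95% of them lay within 0.46. The 95% interval of the difference fell inside ±1 for 24099 expressed probe sets (87.5%) and inside ±2 for 27103 (98.5%). For those 24099 the interval of this average holds no change of 2-fold or more, and for the other expressed probe sets it does. A difference of 2-fold or more over both lines was seen in 181 probe sets (0.658%), 81 higher and 100 lower at S5. Opposite changes in the 2 lines cancel in this average. Within lines the median absolute difference was 0.22 in Allo-AT5 and 0.19 in Allo-AT9. The interval fell inside ±1 for 62.5% of expressed probe sets in Allo-AT5 and 64.7% in Allo-AT9. A 2-fold difference was seen in 698 (2.54%) in Allo-AT5 and 312 (1.13%) in Allo-AT9.

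No pair of generations stood further apart than the most distant replicates, which were arrays of unlike BioC. Between an S5 and an S4 array of the same line, the SD of the log2 difference over expressed probe sets ran from 0.39 to 0.75 (8 pairs). Between replicate arrays of a group it was 0.66, 0.67 and 0.76 in 3 of the groups, and each of these 3 pairs joined a high-BioC and a low-BioC array. The exception was the pair of Allo-AT5 S5 arrays, with an SD of 0.24 and 75 probe sets at least 2-fold apart, against 2362 to 3736 in the other replicate pairs. Whether they are separate pools or repeat hybridizations of 1 pool could not be told from the sources used here, and in the second case the p-values within Allo-AT5 would rest on fewer samples. They were kept as 2 samples, and averaged as 1 they left 0 calls over both lines (691 at an unadjusted p under 0.05). Among the pairs of S5 and S4 arrays, those with like BioC ran from 0.39 to 0.56 and those with unlike BioC from 0.58 to 0.75. The only replicate pair with like BioC, that of Allo-AT5 S5 (0.24), lay below all of them. With BioC as a block the test again called 0 probe sets between S5 and S4, over both lines and within each, and 0 in the interaction. Between Allo-AT5 and Allo-AT9 it then called 1518.

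**Figure D1:**
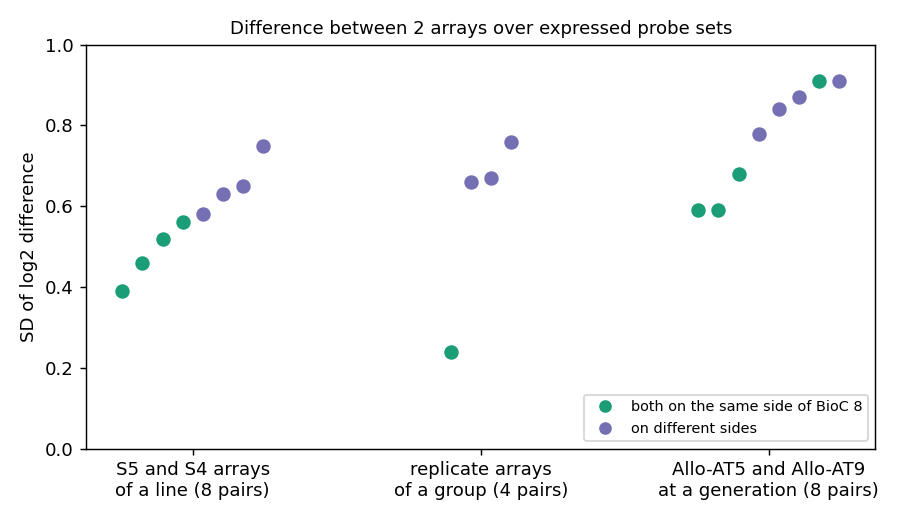
SD of the log2 difference between 2 arrays over the expressed probe sets, for pairs of an S5 and an S4 array of a line, pairs of replicates and pairs of Allo-AT5 and Allo-AT9 arrays at a generation. Each point is 1 pair, coloured by whether both arrays lay on the same side of a BioC level of 8. The S5 and S4 pairs (0.39 to 0.75) reach no further than the replicate pairs (0.24 to 0.76), and the pairs of lines reach 0.91. Among pairs with like BioC, the S5 and S4 pairs lie at 0.39 to 0.56 and the only replicate pair at 0.24.

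At the head of the ranking stood transcripts that were not annotated in the table used here, all with an adjusted p of 1 (limma). They had the smallest p among expressed probe sets whose S5 and S4 arrays did not overlap within a line, so the ranking itself chose them. Ta_20930.1.S1_at read 3.22 and 3.20 in Allo-AT5 S5 and 6.92 and 8.10 in Allo-AT9 S5, against 6.84 and 7.12 in Allo-AT5 S4 and 9.23 and 9.96 in Allo-AT9 S4. The groups of a line did not overlap, and in Allo-AT5 the transcript was under 4.5 on both S5 arrays. Its S5 minus S4 difference was -2.92 ± 0.39 (SE, 95% interval -3.83 to -2.02), -3.77 ± 0.40 in Allo-AT5 and -2.08 ± 0.40 in Allo-AT9. It was the only expressed probe set whose interval lay wholly beyond 1 on either side. The tetraploid parents had it at 9.85 (TTR04) and 10.64 (TTH01) and the diploid TQ27 at 3.37, means of 2 arrays each, so that Allo-AT5 S5 read near the level of the diploid parent. Without any single array the difference stayed between -3.33 and -2.70.

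Ta_2659.1.S1_at had the smallest unadjusted p of all (2.59e-05). It read 6.27 and 6.11 in Allo-AT5 S5 and 6.80 and 6.79 in Allo-AT9 S5, against 7.25 and 7.0 in Allo-AT5 S4 and 7.93 and 7.75 in Allo-AT9 S4. The difference was -0.93 ± 0.18 in Allo-AT5 and -1.04 ± 0.18 in Allo-AT9 (SE). Ta_9887.3.A1_a_at read 5.26, 5.12, 4.76 and 4.92 on the S5 arrays, against 5.77, 6.02, 5.67 and 5.46 on the S4 arrays, a difference of -0.71 ± 0.12.

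On the other side, Ta_11160.1.S1_s_at read 6.53 and 6.49 in Allo-AT5 S5 and 6.41 and 6.31 in Allo-AT9 S5, against 5.21 and 5.74 in Allo-AT5 S4 and 4.99 and 4.12 in Allo-AT9 S4 (difference 1.42 ± 0.24, SE). Its S5 level was close to that of TQ27 (6.62) and its S4 level nearer to or below those of TTR04 (5.54) and TTH01 (5.72). Ta_28496.1.A1_x_at was bright, with 11.41 and 11.18 in Allo-AT5 S5 and 9.74 and 10.74 in Allo-AT9 S5, against 9.60 and 9.85 in Allo-AT5 S4 and 9.17 and 9.54 in Allo-AT9 S4. A second probe set of the same cluster, Ta_28496.1.A1_at, gave 1.27 ± 0.27 beside its 1.22 ± 0.25, and the 2 are not independent. They read TTR04 alike (7.41 on Ta_28496.1.A1_at and 7.45 on Ta_28496.1.A1_x_at) and TTH01 at 9.89 and 10.39. TQ27 they read unlike, at 9.52 and 5.74. The remaining probe sets of this ranking (4 more higher at S5 after Ta_11195.1.S1_at at 0.71, and 5 more lower) differed by 0.61 to 0.66 upward and by -0.94 to -0.61 downward.

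**Figure D2:**
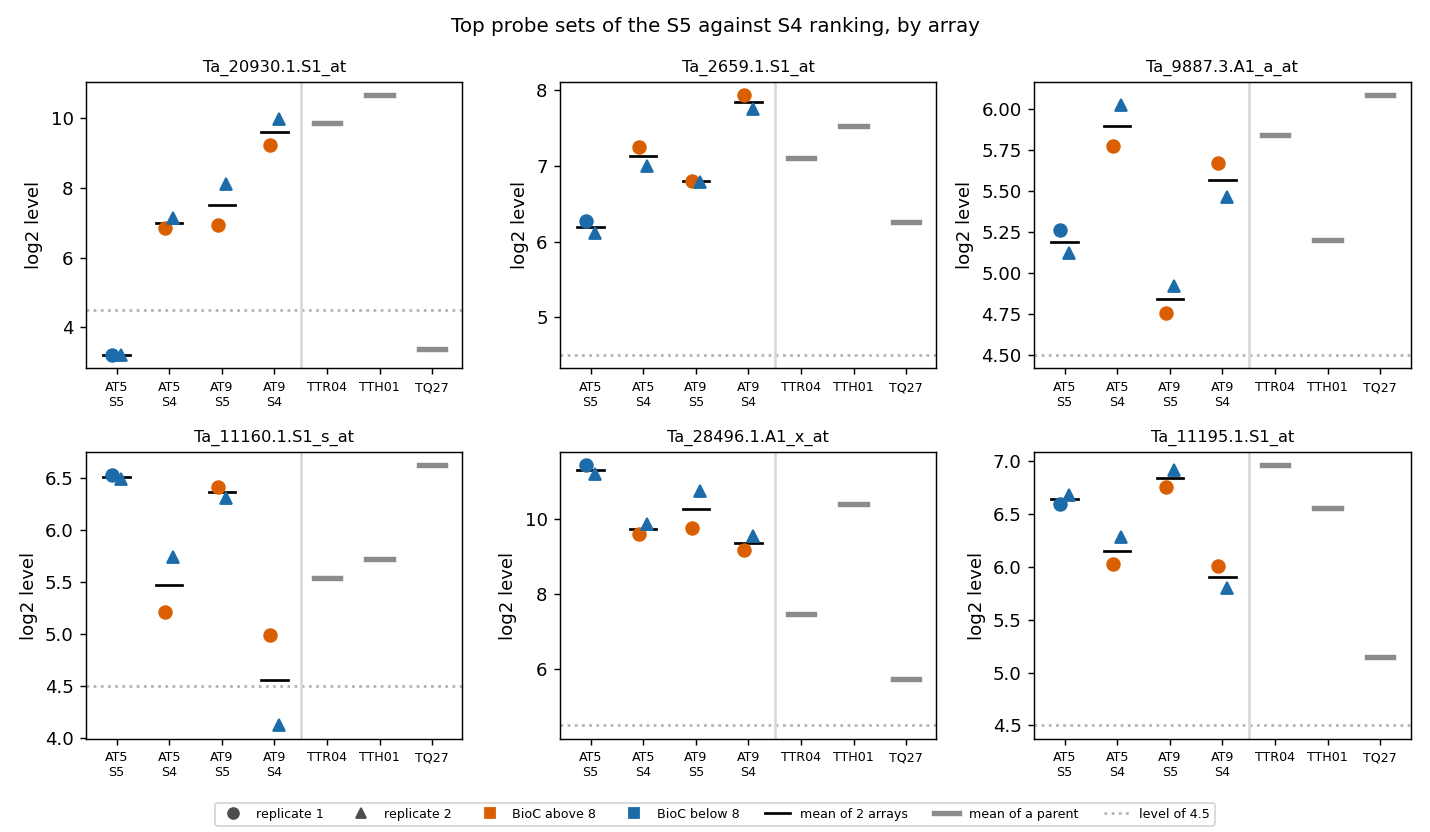
Log2 level of 6 probe sets at the head of the S5 against S4 ranking on each of the 8 arrays, with S5 left of S4 within each line, circles for replicate 1, triangles for replicate 2, orange for BioC above 8 and blue below it, black bars for the mean of 2 arrays and grey bars for the mean of each parent. In each panel both S5 arrays of a line lie on 1 side of both its S4 arrays, and Ta_20930.1.S1_at lies under the dotted level of 4.5 in Allo-AT5 S5 (3.22 and 3.20).

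Such separation of arrays was about as frequent upward as downward over both lines. The S5 arrays lay above the S4 arrays within each line for 479 expressed probe sets (1.74%) and below them for 465 (1.69%). Of the opposite patterns, 478 (1.74%) were above in Allo-AT5 and below in Allo-AT9, and 597 (2.17%) the reverse. Within Allo-AT5 alone the S5 arrays lay above for 4829 (17.5%) and below for 6328 (23.0%), and within Allo-AT9 above for 3168 (11.5%) and below for 3229 (11.7%). Symbols were assigned to 14 of the 479 and to 12 of the 465, since the annotation names 1273 of the 61115 probe sets, and most symbols are locus numbers without a described function.

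Among these named transcripts, Ta_23667.1.S1_at stands for GA20ox1b, a gibberellin 20-oxidase that makes precursors of active gibberellins. It read 4.80 and 4.71 in Allo-AT5 S5 and 4.58 and 4.29 in Allo-AT9 S5, against 4.54 and 4.66 in Allo-AT5 S4 and 3.93 and 3.87 in Allo-AT9 S4, a difference of 0.35 ± 0.13 (SE, unadjusted p = 0.0309, adjusted p = 1, limma). The level was low throughout, and in Allo-AT9 both S4 arrays and S5 replicate 2 were under 4.5. On the low-BioC arrays the difference was 0.23. Of the 12 with a symbol and the smallest p, 6 each way, the largest difference upward was that of LOC542781 (Ta_27725.1.S1_at), with 10.72, 10.65, 11.04 and 11.45 at S5, against 8.65, 10.59, 9.18 and 10.59 at S4. Its low S4 values were those of the high-BioC arrays, and its difference of 1.21 ± 0.44 came to 0.42 when only the 5 low-BioC arrays were used. The largest downward was LOC100049041 (Ta_30113.1.S1_at), with 6.92, 6.60, 7.29 and 7.12 at S5, against 8.07, 7.55, 7.64 and 7.74 at S4 (-0.77 ± 0.18), and -0.72 on the low-BioC arrays.

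Whether the generation difference was itself different between the lines was tested as an interaction. It called 0 probe sets (limma, adjusted p under 0.05, 0% called), with 1584 at an unadjusted p under 0.05 (2.59%, of which 1.2% with the higher and 1.4% with the lower S5 minus S4 difference in Allo-AT5). The smallest interaction p among expressed probe sets was that of Ta_25026.1.S1_at, with 4.68 and 5.00 in Allo-AT5 S5 against 6.39 and 6.37 in Allo-AT5 S4, and 5.57 and 5.28 in Allo-AT9 S5 against 4.91 and 5.09 in Allo-AT9 S4 (Allo-AT5 change minus Allo-AT9 change -1.96 ± 0.28, adjusted p = 0.999). LOC542941 (Ta_13334.1.A1_at) read 4.82 and 5.23 in Allo-AT5 S5 and 3.00 to 3.28 in Allo-AT5 S4, with 3.01 to 3.24 on the 4 Allo-AT9 arrays. It was thus above 4.5 in 1 of the 4 groups only, and at 3.29 to 3.39 in the 3 parents.

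Across the 27528 expressed probe sets, the change in Allo-AT5 and the change in Allo-AT9 had a Pearson r of -0.14 and a Spearman rho of -0.16, and 45.3% had the same sign. Genes are not independent replicates and share the arrays, so these are descriptions. They turned with single arrays: r was 0.47 without Allo-AT9 S5 replicate 1, -0.51 without Allo-AT9 S5 replicate 2, -0.38 without Allo-AT9 S4 replicate 1, 0.18 without Allo-AT9 S4 replicate 2 and 0.10 without Allo-AT5 S4 replicate 1. On the 5 low-BioC arrays alone r was 0.20, with 57.5% of the same sign.

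**Figure D3:**
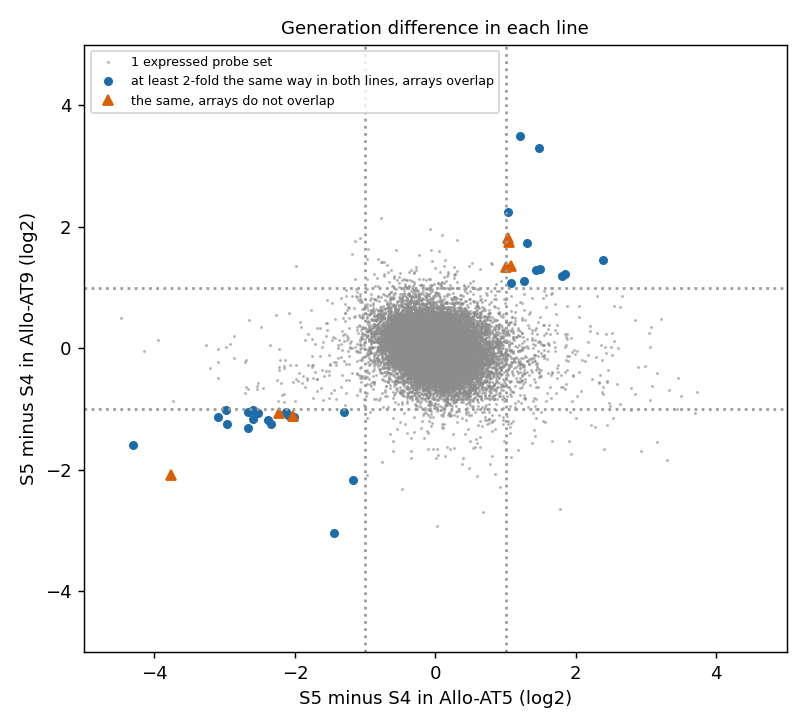
S5 minus S4 difference (log2) in Allo-AT5 (horizontal) and Allo-AT9 (vertical) for each expressed probe set (grey), with dotted lines at 2-fold. Blue circles and orange triangles mark the 35 probe sets at least 2-fold apart the same way in both lines; in the 7 triangles the S5 and S4 arrays of each line do not overlap.

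A 2-fold difference in the same direction in both lines was found for 35 expressed probe sets, 15 higher and 20 lower at S5. In opposite directions it was found for 39, of which 34 were higher in Allo-AT5 S5 and lower in Allo-AT9 S5. The count of 35 depended on the Allo-AT9 arrays. It was 255 without S5 replicate 1, 14 without S5 replicate 2, 23 without S4 replicate 1 and 185 without S4 replicate 2, whereas without any Allo-AT5 array it was between 35 and 46.

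Many of the 20 that were lower at S5 also followed BioC. In 14 of them (70.0%) both high-BioC arrays of Allo-AT9 lay above both low-BioC arrays, against 28.2% of all expressed probe sets. In 2 (10.0%) both lay below, against 23.7%. Of the 15 higher at S5, both lay above in 0 and below in 3 (20.0%). For the 35 together, 19 (54.3%) followed BioC either way, against 51.8% of all expressed probe sets. TaAffx_25602.1.S1_s_at, named after its values had been seen, had 2.97 and 3.49 in Allo-AT5 S5 and 8.33 and 3.19 in Allo-AT9 S5, against 9.67 and 5.38 in Allo-AT5 S4 and 11.01 and 3.70 in Allo-AT9 S4. The part of BioC in their difference was not tested. In 7 of the 35 the arrays did not overlap in either line, and they include Ta_20930.1.S1_at, Ta_11160.1.S1_s_at and Ta_27725.1.S1_at, described above. The other 4, named after their values had been seen, were TaAffx_18447.3.S1_s_at (1.18 ± 0.28) and Ta_29462.1.A1_at (1.4 ± 0.39), higher at S5, and TaAffx_71935.1.S1_at (-1.57 ± 0.44) and Ta_14946.1.S1_at (-1.65 ± 0.49), lower at S5.

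**Figure D4:**
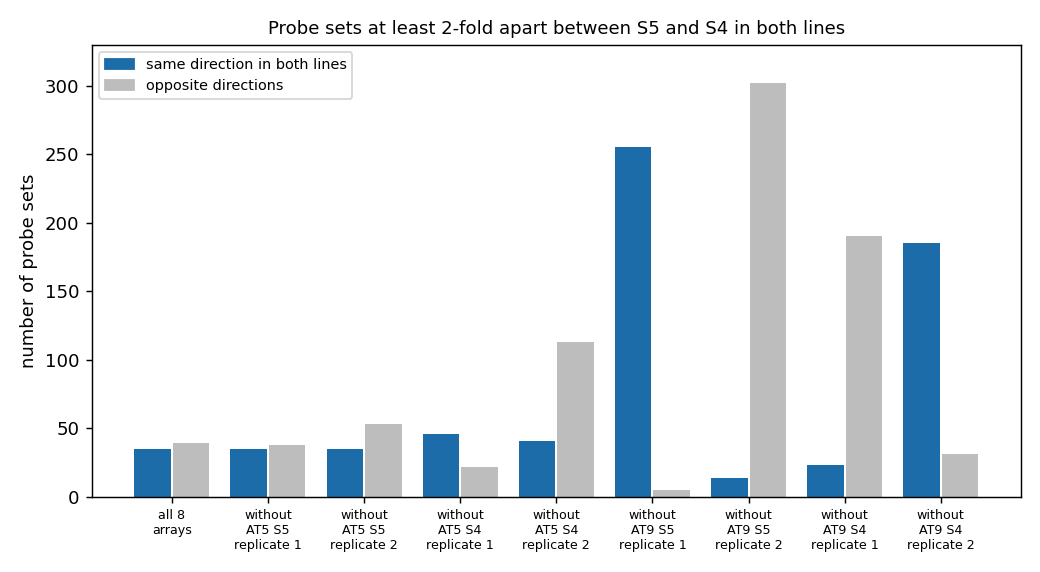
Number of expressed probe sets at least 2-fold apart between S5 and S4 in both lines, in the same direction (blue) and in opposite directions (grey), with all 8 arrays and with each array left out. With all arrays the counts were 35 and 39; leaving out Allo-AT9 S5 replicate 1 gave 255 and 5, and leaving out Allo-AT9 S5 replicate 2 gave 14 and 302.

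Few probe sets had signal in 1 generation alone. With a level of 4.5 as the line, 22432 probe sets were at or above it on all 8 arrays and 30231 under it on all 8. Only 4 were above on all 4 S5 arrays and under on all 4 S4 arrays (Ta_8199.1.S1_at, Ta_17022.1.S1_s_at, TaAffx_63432.1.S1_at and TaAffx_81928.1.S1_at), and 2 the reverse (TaAffx_23976.1.S1_at and TaAffx_116069.3.S1_at). These 6, named after their values had been seen, sat close to the line. The largest difference was 0.58 for Ta_8199.1.S1_at, with 5.03, 4.62, 5.10 and 4.58 at S5 against 4.31, 4.10, 4.15 and 4.45 at S4.

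The parental arrays, which the comparison does not use, split the expressed probe sets by origin of signal. For 2620 the level was at least 2 log2 units higher in both tetraploid parents than in TQ27 with no overlap of arrays, and for 1834 it was higher in TQ27 by the same rule. The test called 0 of either. The median S5 minus S4 difference was -0.07 for the 2620 tetraploid-high and -0.04 for the 1834 TQ27-high probe sets, against -0.01 for all expressed, and 37.7% and 43.7% of them were positive against 47.0%. On the 5 low-BioC arrays the median was -0.17 for the tetraploid-high and -0.12 for the TQ27-high set, against -0.05 for all expressed. With BioC as a block it was -0.10 for the tetraploid-high and -0.06 for the TQ27-high set, against -0.02 for all. With this block the share of positive differences was 30.4% in the tetraploid-high set and 38.9% in the TQ27-high set, against 46.8% for all. Without the block, the median of the tetraploid-high set was -0.03 in Allo-AT5 and -0.11 in Allo-AT9. That of the TQ27-high set was -0.02 in Allo-AT5 and -0.06 in Allo-AT9. For all expressed probe sets it was -0.03 in Allo-AT5 and 0.01 in Allo-AT9. In Allo-AT5, 46.7% of the tetraploid-high and 48% of the TQ27-high set were positive, against 46.7% for all. In Allo-AT9 these shares were 36.4% and 42.9%, against 51.2%. Without the block, the sets thus stood apart from all expressed probe sets in Allo-AT9 and not in Allo-AT5. These are descriptions of sets of probe sets that share arrays. On single arrays the median level of the tetraploid-high set was 7.03 and 7.07 in Allo-AT5 S5 and 6.96 and 7.12 in Allo-AT9 S5, against 6.84 and 7.29 in Allo-AT5 S4 and 7.17 and 7.12 in Allo-AT9 S4.

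Distance from the mid-parent mixtures was taken as the absolute log2 difference between a group mean and the mixture mean. The median absolute difference from MPV5 was 0.24 in Allo-AT5 S5 and 0.23 in Allo-AT5 S4, and from MPV9 0.20 in Allo-AT9 S5 and 0.18 in Allo-AT9 S4. Probe sets at least 2-fold from the mixture numbered 1478 in Allo-AT5 S5 and 982 in Allo-AT5 S4, and 673 in Allo-AT9 S5 and 666 in Allo-AT9 S4. The S5 mean was the nearer to the mixture for 46.6% of expressed probe sets in Allo-AT5 and 45.5% in Allo-AT9. Both generations of a line share its mixture arrays, and no test was made of these counts. Each mixture had 1 high-BioC and 1 low-BioC array, as had Allo-AT5 S4 and both Allo-AT9 groups. In Allo-AT5 S5, the group with the highest count, both arrays were low-BioC and near-identical. The part of BioC in these counts was not tested.

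Of the gene lists, none had a member called in either direction (0% called over all probe sets). Photosynthesis and carbon fixation had 17 expressed probe sets, 13 with a positive and 4 with a negative difference and a median of 0.08, against -0.01 for all expressed. Leaving out Allo-AT5 S5 replicate 1 gave a median of 0.02, leaving out Allo-AT9 S4 replicate 2 gave 0.15, and with BioC as a block 11 were positive. OEE2 (Ta_85.1.S1_at), of the oxygen-evolving complex, read 13.05, 13.01, 12.93 and 13.10 at S5 against 12.97, 12.74, 12.90 and 12.94 at S4 (0.14 ± 0.11, SE). The phosphoribulokinase PRK (Ta_23158.1.S1_at), which regenerates the substrate of Rubisco, gave -0.09 ± 0.15. Of the rbcL probe sets 10 were expressed, with differences of 0.02 to 1.10 in Allo-AT5 and -0.73 to 0.01 in Allo-AT9. All 10 are assigned to 1 gene. Their median over both lines was 0.06 with 8 positive, and 0.01 with 6 positive when BioC was a block. TaAffx_128896.17.S1_s_at, at the low end in Allo-AT9 and named after its values had been seen, read 6.91 on the high-BioC and 8.67 on the low-BioC array of Allo-AT9 S5, against 8.34 and 8.69 in Allo-AT9 S4.

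Cell wall and cytoskeleton transcripts had a median of 0.37 (12 expressed, 9 positive and 3 negative). Most of these are 8 probe sets for beta-tubulin, the subunit of microtubules, and all 8 were positive. Ta_212.1.S1_at (tubb1) read 10.90 and 10.78 in Allo-AT5 S5 and 8.98 and 11.28 in Allo-AT9 S5, against 8.57 and 10.47 in Allo-AT5 S4 and 9.56 and 10.40 in Allo-AT9 S4 (0.73 ± 0.58, SE). The 3 lowest of these values were those of the 3 high-BioC arrays. The median over the 8 tubulin probe sets was 0.47, with 0.85 in Allo-AT5 and -0.12 in Allo-AT9. It was 0.11 with BioC as a block, 0.09 without Allo-AT5 S4 replicate 1 and 0.91 without Allo-AT9 S5 replicate 1. The xyloglucan-modifying XTH (Ta_30703.1.S1_at), which loosens walls in growing cells, read 5.97, 5.61, 5.16 and 5.80 at S5 against 4.74, 5.31, 5.14 and 5.16 at S4 (0.55 ± 0.21, unadjusted p = 0.0278, adjusted p = 1, limma).

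Methyl transfer had the highest list median, 0.56, over 5 expressed probe sets, 4 of them positive. SAHH, which clears the S-adenosylhomocysteine left by methyl transfer, gave 0.56 ± 0.43 and 0.72 ± 0.51 (SE) on its 2 probe sets, and PEAMT1 (Ta_1842.1.S1_a_at), of choline synthesis, gave 0.79 ± 0.35. PEAMT1 read 12.22 and 12.08 in Allo-AT5 S5 and 11.79 and 11.82 in Allo-AT9 S5, against 12.53 and 10.75 in Allo-AT5 S4 and 10.92 and 10.52 in Allo-AT9 S4. The highest array was thus an S4 array, so the generations overlapped in Allo-AT5 and not in Allo-AT9. For this list the median was 1.35 on the 5 low-BioC arrays, 1.01 without Allo-AT5 S4 replicate 1 and 0.22 without Allo-AT5 S4 replicate 2.

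Over the 8 arrays the medians of the other lists were 0.13 for sugar, starch and fructan metabolism (6 expressed), 0.10 for redox and glutathione (14), -0.03 for translation (9), -0.02 for chromatin (6), -0.07 for defence (5), -0.18 for membrane transport (4), -0.05 for grain storage proteins (2) and 0.12 for gibberellin synthesis (4). Of the chaperone list 1 probe set was expressed (-0.16), and of 7 for dehydration and cold none was. For gibberellin synthesis the median was -0.39 in Allo-AT5 and 0.69 in Allo-AT9. Over both lines it was -0.24 without Allo-AT9 S5 replicate 1 and 0.41 without Allo-AT5 S4 replicate 1 or with BioC as a block, so its sign rested on single arrays. With that block the cell wall median was 0.05 and the sugar median 0.16. On the low-BioC arrays the medians were -0.36 for membrane transport, 0.26 for sugar and 0.23 for cell wall. All 5 defence probe sets, some of which share a gene (xip or LTP3), had negative differences over both lines, from -0.33 to -0.01. Within lines the signs were mixed, from -0.63 to 0.47 in Allo-AT5 and from -0.79 to 0.43 in Allo-AT9. The largest over both lines was that of PR5 (Ta_24501.1.S1_at), a thaumatin-like antifungal protein. It read 6.35 and 6.28 in Allo-AT5 S5 and 4.58 and 4.25 in Allo-AT9 S5, against 7.75 and 6.15 in Allo-AT5 S4 and 3.94 and 4.95 in Allo-AT9 S4 (-0.33 ± 0.36, SE). On every array Allo-AT5 was above Allo-AT9 for this gene. The defence median was 0.02 with BioC as a block and -0.28 on the low-BioC arrays.

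**Figure D5:**
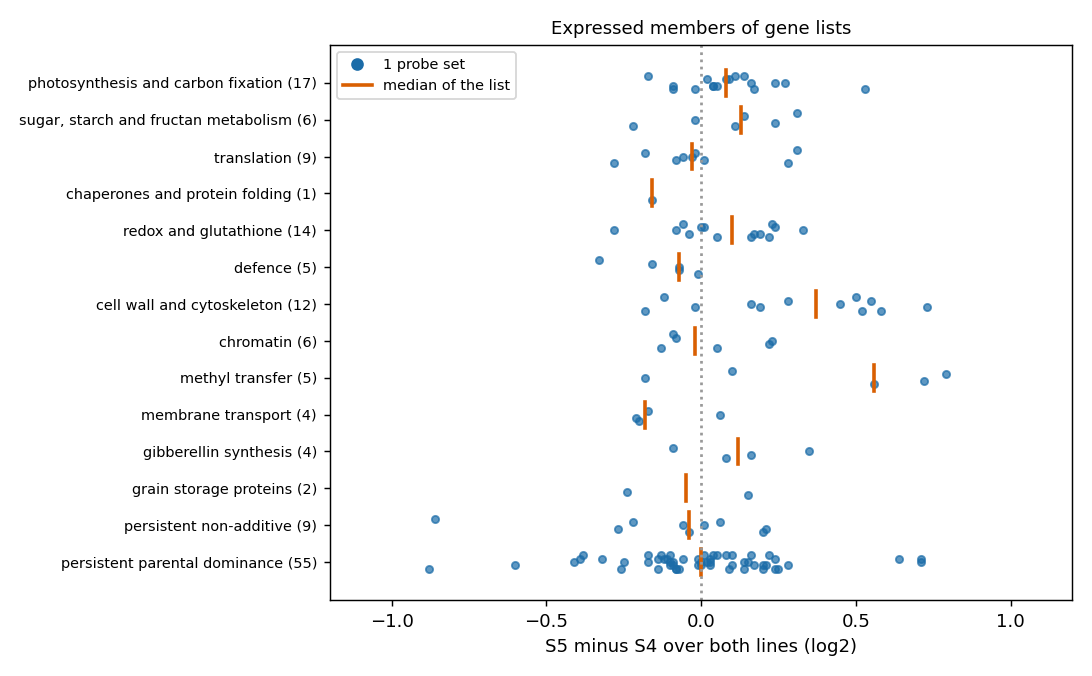
S5 minus S4 difference over both lines (log2) of each expressed member of the gene lists, with the number of expressed probe sets in brackets. Points are probe sets and orange bars list medians; the medians of methyl transfer (0.56) and of cell wall and cytoskeleton (0.37) lie furthest from 0 over the 8 arrays, and with BioC as a block that of cell wall and cytoskeleton was 0.05.

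Some transcripts had been singled out by the study because they departed from the mid-parent value or followed 1 parent in both lines and both generations. Those lists were chosen on these arrays and so are not independent of them. Of 14 non-additive probe sets whose names were at hand, 9 were expressed, with a median difference of -0.04, and of 71 with parental dominance 55 were expressed, with a median of 0.00. TaAffx_128796.1.S1_at, which has no described function, lay far from both tetraploid parents. It read 8.98, 8.92, 9.39 and 8.96 at S5 and 8.98, 9.08, 9.40 and 9.02 at S4, with 2.39 and 2.42 in TTR04 and TTH01 and 10.86 in TQ27. Its S5 minus S4 difference was -0.06 ± 0.14 (SE). The mitochondrial maturase matR (TaAffx_57297.1.S1_at) read 3.76 to 4.5 at S5 and 3.59 to 4.37 at S4. That is near the tetraploid parents (3.82 in TTR04 and 3.92 in TTH01), against 8.68 in TQ27 and 8.33 in MPV5. In both lines the probe set did not count as expressed in either generation. Its difference was 0.06 ± 0.24 (SE, 95% interval -0.48 to 0.61).

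Ta_5385.1.S1_at, a peroxidase, read otherwise. In Allo-AT5 it read 3.41 and 3.57 at S5 against 5.30 and 5.40 at S4, and in Allo-AT9 2.48 and 3.26 at S5 against 3.00 and 2.46 at S4. The difference was -1.86 ± 0.30 in Allo-AT5 and 0.14 ± 0.30 in Allo-AT9 (SE, interaction -1.99 ± 0.42), with TTR04 at 7.41 and TQ27 at 5.78. It did not pass the test within Allo-AT5 or in the interaction. Of 9 probe sets with a quantitative PCR assay, among them the peroxidase, matR and TaAffx_128796.1.S1_at, 7 were expressed. Leaving the peroxidase aside, the array differences lay between -0.42 ± 0.19 (Ta_3976.2.S1_x_at, not expressed) and 0.18 ± 0.23 (SE, Ta_30798.3.S1_at, a vacuolar-processing enzyme). Ta_12195.1.A1_at had the widest interval, with -0.04 ± 0.73 (SE, 95% interval -1.7 to 1.63). The quantitative PCR values themselves were not compared between generations here.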

How the data were processed

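Total RNA was hybridized to Affymetrix wheat arrays, and the deposited table holds log2 values that the authors made from the raw arrays by RMA with the R package limma. The submitters' processing notes name RMA, limma, MAS5 and GCOS, with no versions. The MAS5 flags and raw arrays were not used here. Array values ran from 1.37 to 14.46, and the number of arrays limits the precision.

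In R 4.3.3 with limma 3.58.1, line plus generation was fitted to the 8 arrays with empirical Bayes moderation, and 4 group means gave the contrasts within lines and the interaction. Of 61290 probe sets, 111 AFFX and 64 RPTR controls were set aside. The Benjamini-Hochberg adjustment covered the other 61115 (threshold 0.05). The procedure was tested on simulated data. The 2 near-identical Allo-AT5 S5 arrays were kept apart, and averaged in an alternative. Alternatives changed the arrays, blocks, normalization, filter and moderation. Probe sets named are the 8 smallest p each way whose arrays do not overlap within lines, the 6 such with a symbol, the 5 smallest interaction p, the 9 of the quantitative PCR and at most 2 members of a list each way. List members were matched by symbol to the array annotation, updated through IWGSC CS RefSeq v2.1 (1272 of 1273 matched). Other tubulin, SAHH and marker probe sets were named after their values had been seen. The members and lists were chosen with earlier results of these data known. Probe set names carry _ in place of their first dot.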

Additional observations from a re-analysis of the deposited data

How the results depend on the processing

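No probe set was called over both lines, within a line or in the interaction under cyclic loess, quantile normalization, either filter, the intensity trend, BioC as a block or any array left out (0 to 0). The same held for the Allo-AT5 S5 arrays averaged as 1 (not run for Allo-AT9), for 4 group means (over both lines) and for 1 line at a time (within lines). The exceptions follow. With all 18 arrays in 1 fit, 1 probe set was called in Allo-AT5, Ta_7926.1.A1_at, which is under 4.5 on all 8 arrays. With no adjustment, 1627 passed over both lines (764 to 4712 with 1 array left out), 1739 in Allo-AT5 (408 to 4792), 1300 in Allo-AT9 (682 to 5182) and 1584 in the interaction (434 to 6566). On the 5 low-BioC arrays, chosen after seeing the data, 1 was called over both lines (Ta_19715.1.S1_at, -2.35, adjusted p = 0.0471), 2897 in Allo-AT5, 590 in Allo-AT9 and 469 in the interaction. In the last 3 the spread comes from the near-identical Allo-AT5 S5 pair alone, and each other group is assumed to vary like it. The 35 probe sets 2-fold apart the same way in both lines became 65 with no filter (added after seeing the data), 18 at a level of 6 and 14 to 255 with 1 array left out. The labels tie nothing to the replicate number. Deviations of same-numbered arrays correlated at 0.03 in Allo-AT5 and 0.51 in Allo-AT9, so those of Allo-AT9 deviated together. In both generations of Allo-AT9, replicate 1 was the high-BioC array, so a pairing and BioC cannot be told apart there. With the replicate block 0 were called in each contrast, with 2626 at an unadjusted p under 0.05 over both lines.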
